A study of Mus musculus with 4 samples.

Results

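The 7 CC chemokine ligands Ccl2, Ccl7, Ccl8, Ccl12, Ccl3, Ccl4 and Ccl5 and the receptors Ccr1 and Ccr2 were followed across the cell types of mouse gingiva. They were taken by symbol, 9 of the 31253 genes listed, and each of the 9 had at least 1 unique molecular identifier (UMI, a count of 1 captured transcript) in each of the 4 libraries. CC chemokines are small secreted proteins that bind matrix and vessel wall and draw in leukocytes through G protein-coupled receptors. Ccl2, Ccl7 and Ccl12 act mainly on Ccr2, which brings classical monocytes out of the marrow and into inflamed tissue, and mouse Ccl8 acts chiefly on Ccr8. Ccl3 and Ccl5 act on Ccr1 among other receptors, and Ccr1 is carried by monocytes, macrophages and neutrophils.

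The series holds single-cell libraries of gingiva from mice labelled Itga9-Lyz2-cKO or Itga9-Lyz2-cHet, either with periodontitis (PD) or as controls. In the PD groups a silk thread was tied around a maxillary molar and Porphyromonas gingivalis was applied, and gingiva was taken 14 days later. The libraries are called cKO_PD, cHet_PD, cKO_control and cHet_control, and every set of 4 values keeps that order. Both genotypes carry Itga9 and Lyz2 in their label, and the abbreviations are not spelled out. If Lyz2 drives the recombinase, as the name reads, it would act in monocytes, macrophages and neutrophils together, since Lyz2 is active in all of them. Each group was 1 library, the number of animals in a library is not given, and so no difference has a replicate check. All intervals are 95% intervals that cover counting error only.

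Cells were gated into types by the share of a list of marker genes detected in the cell. None of the markers was a chemokine, a chemokine receptor or Lyz2. The 4 libraries held 6684 to 9331 barcodes and 21368197 to 62914870 UMIs, with median UMIs per barcode of 2509 in cKO_PD and 2934 in cHet_PD, against 5076 in cKO_control and 5292 in cHet_control. The controls had been deposited with a higher floor of UMIs per barcode than the 500 of the PD libraries. Between 223 and 293 barcodes of a library also occurred in another library. Mononuclear phagocytes (monocytes and macrophages) numbered 121, 205, 55 and 46 cells, and all 18 of their markers were found in each library. Neutrophils numbered 785, 765, 23 and 37 cells, fibroblasts 163, 283, 94 and 203, and epithelial cells 4273, 5974, 6944 and 7259. Cells with markers of more than 1 lineage (152, 219, 176 and 136) were left out as mixed, and no doublet caller was used. Related lineages did not make a cell mixed: phagocytes with neutrophils or dendritic cells, and fibroblasts with pericytes or bone-forming cells. Blood with lymphatic endothelium and keratinocytes with glandular epithelium were exempt too. Itga9 in phagocytes was at 16.2 CPM (UMIs scaled to a class total of 1e6) in cKO_PD (7.01 to 32.0) and 95.1 in cHet_PD (76.5 to 117), against 46.0 in cKO_control (26.8 to 73.7) and 125 in cHet_control (89.9 to 169). It was lower in the cKO library of each pair, the deleted exons are not given, and a tag outside them would still be counted. Neutrophils held 1, 0, 0 and 1 UMI of Itga9.

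The loci sit in 2 clusters, with GRCm38 coordinates of GENCODE M21. On chromosome 11, Ccl2 (82035571 to 82037453), Ccl7 (82045712 to 82047525), Ccl12 (82101845 to 82103400) and Ccl8 (82115185 to 82116799) lie on the plus strand. Farther along are Ccl5 (83525778 to 83530518, minus strand), Ccl3 (83647844 to 83649355, minus) and Ccl4 (83662584 to 83664683, plus). Ccr1 (123962124 to 123968692, minus) and Ccr2 (124101950 to 124113557, plus) are on chromosome 9. None of the 31-base words of the exons of Ccl2, Ccl7, Ccl8, Ccl12, Ccl3 or Ccl4 occurred in another gene. In Ccr2 230 of 6745 did, so part of its count is uncertain, and Ccl2 overlaps Gm17268 on the opposite strand.

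Promoter windows of 300 bases, from 250 before the start to 50 after it, were listed by RefSeq (GRCm38.p6) for 5 of the 9 members: Ccl8, Ccl12, Ccl3, Ccr1 and Ccr2. Those of Ccl8 and Ccl12 are shown because these ligands had 0 and 1 UMI in cKO_PD phagocytes, and that of Ccl3 because its levels were close in both PD libraries. The windows are chr11:82114935-82115234, plus strand, for Ccl8, chr11:82101595-82101894, plus strand, for Ccl12 and chr11:83649329-83649628, minus strand, for Ccl3. Capitals mark the PU.1 word GAGGAA, or TTCCTC where it is read on the opposite strand, and the TATA word TATAAA.

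Ccl8: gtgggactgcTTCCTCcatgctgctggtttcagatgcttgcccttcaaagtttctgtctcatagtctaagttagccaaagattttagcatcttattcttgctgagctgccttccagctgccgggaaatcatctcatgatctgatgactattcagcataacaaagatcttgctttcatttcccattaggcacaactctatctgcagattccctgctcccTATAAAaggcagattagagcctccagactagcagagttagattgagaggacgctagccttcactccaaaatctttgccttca

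Ccl12: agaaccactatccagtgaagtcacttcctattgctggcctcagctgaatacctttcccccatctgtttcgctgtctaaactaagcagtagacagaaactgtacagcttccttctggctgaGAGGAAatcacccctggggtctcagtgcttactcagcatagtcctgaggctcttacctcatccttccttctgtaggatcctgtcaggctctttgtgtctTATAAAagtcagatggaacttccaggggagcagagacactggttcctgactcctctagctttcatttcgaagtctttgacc

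Ccl3: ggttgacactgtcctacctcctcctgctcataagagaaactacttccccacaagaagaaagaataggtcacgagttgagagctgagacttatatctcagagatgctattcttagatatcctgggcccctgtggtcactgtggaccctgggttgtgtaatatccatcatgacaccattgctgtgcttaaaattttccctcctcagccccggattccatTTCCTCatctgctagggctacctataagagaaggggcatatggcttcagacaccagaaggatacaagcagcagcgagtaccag

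Ccl8 and Ccl12 shared the TATA word, 32 and 31 bases before the start, which 13.6% of all 32851 windows of that length held. The PU.1 word was found in 4 of the 5 windows (Ccl8, Ccl12, Ccl3 and Ccr1) and in 28.3% of all windows. The NF-kB word, GGG and CC with any 5 bases between, was in the Ccr1 window, against 50.8% of all windows. Neither the AP-1 word TGANTCA (7.8% of all windows) nor the interferon-type word, GAAA and GAAA with any 2 bases between (3.4%), was in any of the 5. Both strands were searched for every word, and a word in a window is a description of its letters only.

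In mononuclear phagocytes each of the 4 ligands of the Ccl2 cluster was highest in a control library, whereas in fibroblasts, pericytes and endothelium Ccl2 was highest in cHet_PD. Ccl2 in phagocytes had 71 UMIs, 144 CPM (113 to 182), in cKO_PD and 388 UMIs, 410.1 CPM (370.3 to 453), in cHet_PD. It had 552 UMIs, 1495 CPM (1373 to 1625), in cKO_control and 193 UMIs, 573 CPM (495 to 659.8), in cHet_control. The cKO_PD library was thus the lowest of the 4 and cKO_control the highest, and none of these intervals overlapped. A UMI of Ccl2 was seen in 21.5%, 30.2%, 63.6% and 47.8% of phagocytes, or in 13.2%, 17.8%, 41.8% and 23.9% after each cell was thinned to 1000 UMIs. In T and NK cells, which should lack Ccl2, the shares were 0 of 80, 2.41% of 166, 0 of 48 and 0 of 39 cells, where the floor of 3 counts allows up to 3.75%, 6.25% and 7.69% of cells with a UMI, and the exact upper limits are 4.51%, 7.40% and 9.03%. Median depths of those cells were 1141, 1716.5, 3796.5 and 2579 UMIs, against 3371, 3897, 6858 and 6841 in phagocytes.

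Ccl7, next to Ccl2 in the genome and also a Ccr2 ligand, had 6 UMIs in cKO_PD phagocytes, 12.2 CPM (4.47 to 26.5). The other libraries held 360.4 CPM (323 to 401) in cHet_PD, 1229 (1119 to 1348) in cKO_control and 327 (268 to 394) in cHet_control. The intervals of cHet_PD and cHet_control overlapped, while cKO_PD lay far below all the others. Ccl7 was in 3.31%, 19.0%, 43.6% and 21.7% of phagocytes, and 1 cell of cKO_control held 90 of that library's 454 UMIs. Of the phagocytes with Ccl2, 2 of 26 also held Ccl7 in cKO_PD and 26 of 62 in cHet_PD, against 21 of 35 in cKO_control and 9 of 22 in cHet_control.

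Ccl8, a ligand of tissue macrophages, had no UMI in the 121 phagocytes of cKO_PD (0 to 7.49 CPM), where a floor of 3 counts allows up to 2.48% of cells with a UMI and sets no limit on cells that express the gene. It reached 152 CPM (128 to 179) in cHet_PD, 593 (517 to 677) in cKO_control and 1594 (1462 to 1735) in cHet_control. The order of the last 3 libraries differed from that of Ccl2, with cHet_control on top. The counts were uneven among cells: 1 cell held 86 of the 144 UMIs of cHet_PD, and the 10 highest cells held 93.2% to 97.9% in the 3 libraries. Ccl12, a mouse Ccr2 ligand, had 1 UMI, 2.03 CPM (0.0514 to 11.3), in cKO_PD and 41.2 CPM (29.3 to 56.4) in cHet_PD. It was at 883 CPM (790 to 984) in cKO_control and 80.2 (52.8 to 117) in cHet_control, so the 2 controls were the farthest apart for this member. Mixed cells, left out here, held 41.3% of the Ccl12 UMIs of cHet_control and 2.08% of those of cKO_control. Of the phagocytes with Ccl8, 5 of 13 in cHet_PD also held Ccl12, against 16 of 17 in cKO_control and 3 of 14 in cHet_control.

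**Figure D1:**
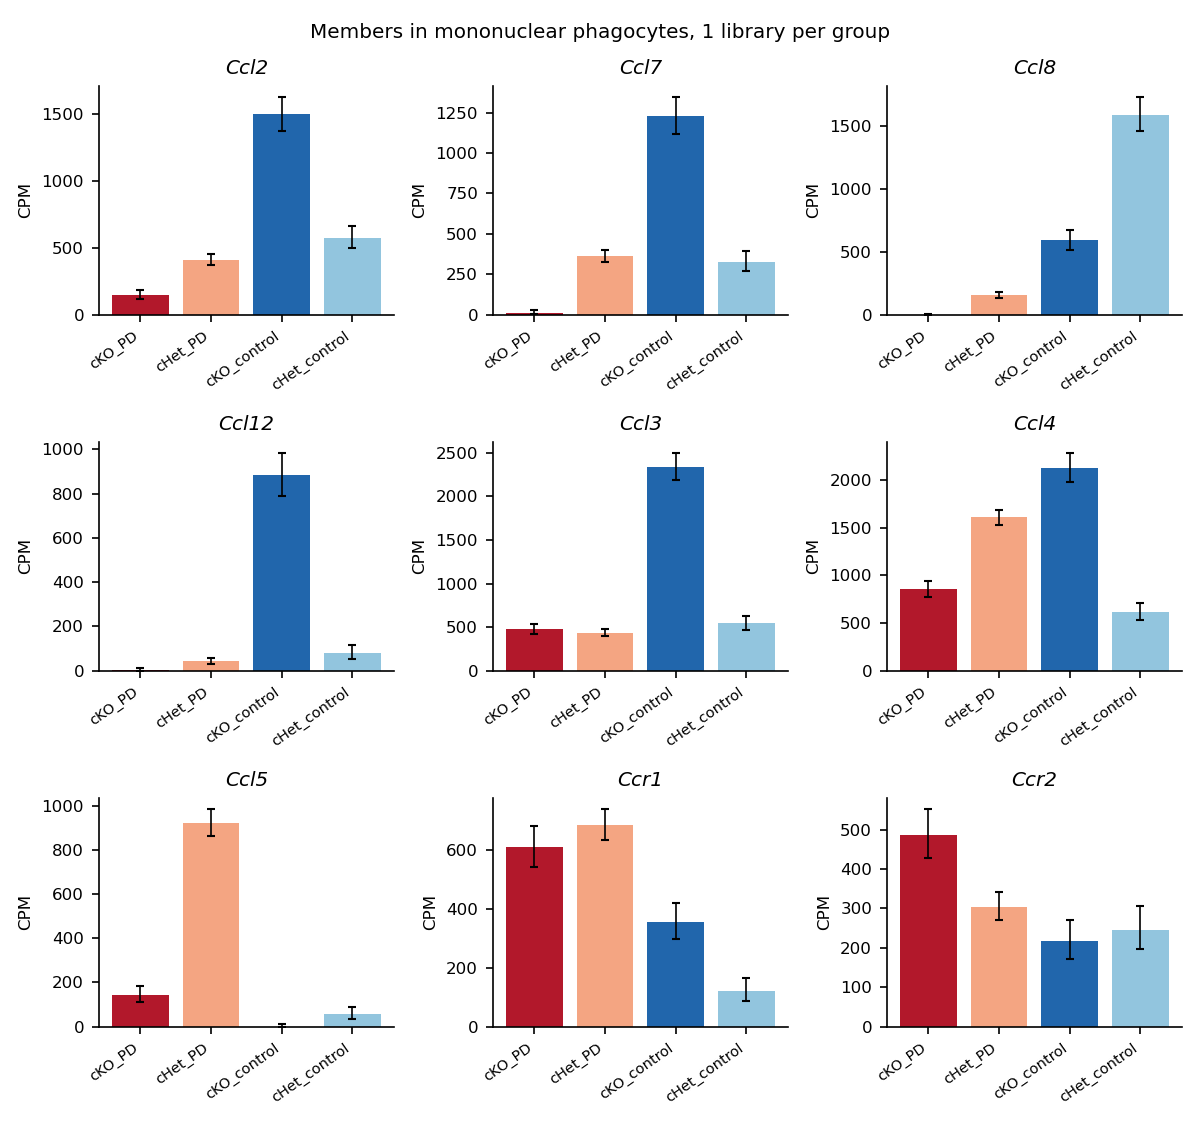
CPM of each of the 9 members (panels, each with its own y axis from 0) in mononuclear phagocytes of cKO_PD, cHet_PD, cKO_control and cHet_control (x axis, left to right). Bars are CPM of the summed UMIs and error bars are exact Poisson 95% intervals; Ccl8 stands at 0 in cKO_PD, Ccl5 at 0 in cKO_control, and Ccr2 is highest in cKO_PD at 487.2 CPM.

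Ccl3 and Ccl4 are neighbouring genes of the MIP-1 type. Ccl3 in phagocytes was at 473 CPM (414 to 538) in cKO_PD and 435.5 (394 to 480) in cHet_PD, against 2340 (2186 to 2501) in cKO_control and 543 (467 to 628) in cHet_control. Only the cKO_control interval lay apart from all 3 others. Ccl4 was at 857 CPM (777 to 942) in cKO_PD and 1608 (1528 to 1691) in cHet_PD, against 2131 (1985 to 2285) in cKO_control and 615 (534 to 704) in cHet_control. No intervals of Ccl4 overlapped, and its lowest library was cHet_control. Cells with Ccl3 also held Ccl4 in 28 of 48 cKO_PD and 78 of 99 cHet_PD phagocytes, against 34 of 42 in cKO_control and 13 of 23 in cHet_control. Mixed cells, left out here, held 40.3% of the Ccl3 UMIs and 48.9% of the Ccl4 UMIs of cHet_control.

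Ccl5, which also draws in T cells, was found in phagocytes mainly of the PD libraries. It had 71 UMIs in cKO_PD, 144 CPM (113 to 182), in 12 of 121 cells and 872 UMIs in cHet_PD, 922 CPM (862 to 985), in 74 of 205 cells. No UMI was found in the 55 phagocytes of cKO_control (0 to 9.99 CPM), where the same floor allows up to 5.45% of cells with a UMI, and 2 of 46 cells of cHet_control held 19 UMIs, 56.4 CPM (34.0 to 88.1), 17 of them in 1 cell. Among cells that should lack Ccl5, fibroblasts had it in 0.613% and 3.89% of the PD cells and in 0 of 94 and 0 of 203 of the control cells, at median depths of 2970, 3465, 5974.5 and 6314 UMIs.

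The receptors stood in another order than the ligands. Ccr1 was at 609 CPM (542 to 682) in cKO_PD and 685 (633 to 740) in cHet_PD, against 355 (297 to 421) in cKO_control and 122 (87.4 to 165) in cHet_control. Both PD libraries lay above both controls, and their own intervals overlapped. Ccr1 was seen in 74.4%, 74.6%, 54.5% and 32.6% of phagocytes, and in 48.2%, 40.3%, 21.8% and 17.4% after thinning. Ccr2 was at 487.2 CPM (428 to 553) in cKO_PD and 304 (270.3 to 342) in cHet_PD, against 217 (172 to 269.6) in cKO_control and 246 (196 to 306) in cHet_control. Its highest library was cKO_PD, where 57.9% of phagocytes had a UMI, against 42.4%, 25.5% and 34.8% in the other libraries, or 37.7% against 20.4%, 21.8% and 13% after thinning. Epithelial cells, which should lack both receptors, had Ccr1 in 0.0276% to 1.21% and Ccr2 in 0.110% to 0.368% of cells at median depths of 2876 to 5583 UMIs. Of phagocytes with Ccr2, 57 of 70 in cKO_PD and 68 of 87 in cHet_PD also held Ccr1, against 8 of 14 in cKO_control and 11 of 16 in cHet_control.

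Pairs of libraries were then compared within phagocytes, asking what PD did in each genotype and how the genotypes differed. A gene was counted as apart at 2-fold or more with 10 CPM added, at least 20 UMIs over the pair and an interval of the ratio that left out 1. Log2 folds carry those 10 CPM, and ratios do not. In cKO_PD over cKO_control, all 9 members were measured, 6 were lower and 2 higher, against 12.4% lower and 13.4% higher of the 5533 genes measured. The median log2 fold of the members was -2.28, and that of all genes 0.09. In cHet_PD over cHet_control, 1 was lower and 3 higher, against 14.6% and 9.9% of 6243 genes, with a median of 0.14 for the members and -0.12 for all genes. In cKO_PD over cHet_PD, 5 were lower and 0 higher, against 5.38% and 6.35% of 6409 genes, with medians of -1.45 and 0.14. In cKO_control over cHet_control, 8 were measured, of which 6 were higher and 1 lower, against 3.17% and 5.07% of 5047 genes, with medians of 1.62 and -0.03. These 4 pairs share libraries, and so their counts are not independent.

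The Ccl2-cluster ligands were lower in cKO_PD than in cKO_control phagocytes. Ccl2 was 10.4-fold lower (8.09 to 13.5) and Ccl7 101-fold lower (46.0 to 277). Ccl8 was at least 97.4-fold lower, from a floor of 3 counts in cKO_PD, and Ccl12, with 1 UMI in cKO_PD, was 435-fold lower (77.5 to 17229). Ccl3 was 4.95-fold lower (4.28 to 5.74) and Ccl4 2.49-fold lower (2.21 to 2.81), and Ccl4 lost its call when cells were thinned to 1000 UMIs (log2 -0.45, against -1.30). The 2 members that were higher were Ccl5, at least 17.7-fold from a floor of 3 counts in cKO_control, and Ccr2, 2.25-fold (1.74 to 2.93). Ccr1, at 1.72-fold (1.39 to 2.12), did not reach the fold, and passed it after thinning (log2 1.33).

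Phagocytes of cHet_PD, set over cHet_control, had fewer members apart. Ccl8 was 10.5-fold lower (8.70 to 12.7). Ccl5 was 16.3-fold higher (10.4 to 27.3), Ccr1 5.63-fold (4.10 to 7.92) and Ccl4 2.62-fold (2.26 to 3.04). Ccl4 was no longer apart when clusters replaced the gate (log2 0.19, against 1.37), and under that setting Ccl3 and Ccl12 became lower (log2 -1.22 and -1.23). The Ccr1 log2 fold was 2.40, or 1.16 after thinning. Ccl2 (log2 -0.47), Ccl7 (0.14), Ccl12 (-0.82), Ccl3 (-0.31) and Ccr2 (0.29) did not reach the fold. Thinned cells gave log2 0.29 for Ccl2 and 0.64 for Ccl12, on the other side of 0.

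Between the PD libraries, phagocytes of cKO_PD had less of the 4 Ccl2-cluster ligands and of Ccl5 than those of cHet_PD. The fold was 2.85 for Ccl2 (2.20 to 3.72), 29.6 for Ccl7 (13.5 to 81.2), 20.3 for Ccl12 (3.44 to 822, with 1 UMI) and 6.40 for Ccl5 (5.02 to 8.27), and Ccl8 was at least 25.0-fold lower. After thinning, Ccl12 had 0 against 14 UMIs and was too low to be measured. Ccl4 was 1.88-fold lower (1.68 to 2.10; log2 -0.90), short of the fold, and past it under a scaling by trimmed means (TMM; log2 -1.17). Ccl3 (1.09-fold, 0.921 to 1.28) and Ccr1 (log2 -0.17) were close to equal, and Ccr2 was 1.60-fold higher (1.34 to 1.91) and did not reach the fold.

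The control libraries differed from each other as well. In cKO_control over cHet_control phagocytes, Ccl12 was 11-fold higher (7.43 to 17.0), Ccl3 4.31-fold (3.67 to 5.08), Ccl7 3.76-fold (3.05 to 4.68), Ccl4 3.47-fold (2.97 to 4.06), Ccr1 2.91-fold (2.04 to 4.25) and Ccl2 2.61-fold (2.21 to 3.09). Ccl8 went the other way, 2.69-fold lower (2.29 to 3.16). Ccl5 had 0 and 19 UMIs, under the 20 needed. Ccl4 was short of the fold with clusters in place of the gate (log2 0.68), as was Ccr1 after thinning (log2 0.15, from 16 and 12 UMIs).

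**Figure D2:**
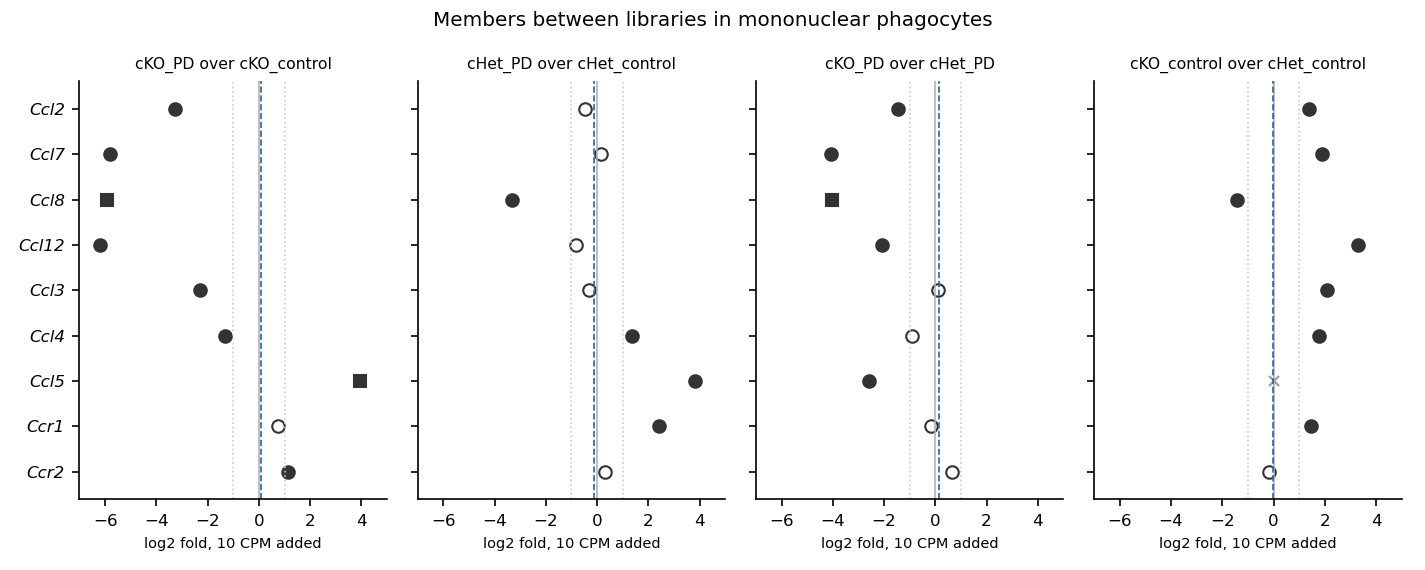
Log2 folds, with 10 CPM added (x axis), of the 9 members (rows) in mononuclear phagocytes for 4 pairs of libraries (panels). Filled points are 2-fold or more apart, open points are not, squares have 0 UMIs in 1 library and the cross marks Ccl5, not measured; dotted lines mark 2-fold, and the blue dashed line is the median of all genes, 0.09 in the left panel, where 6 members lie to the left of the lower dotted line.

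The makeup of the phagocytes differed between libraries, and that moved with these values. By marker scores, cells of a resident type (C1qa, Mrc1, Cd163) were 10, 22, 40 and 30, those of an inflammatory type (Arg1, Spp1, Gpnmb) 23, 117, 2 and 2, and those of a monocyte type (Ly6c2, F13a1, Vcan) 80, 49, 8 and 11. Summed neutrophil markers in phagocytes were 3422, 962, 357 and 897 CPM (15, 14, 11 and 12 of 18 with a UMI). Of these, Cd177 and Mmp9 are also in the phagocyte state lists. Summed lymphatic markers, of which Pdpn and Lyve1 are also in the phagocyte state lists, were 118, 1470.3, 29.8 and 618 CPM (3, 4, 2 and 2 of 7), and dendritic markers 99.5, 364, 347 and 715 CPM (9, 10, 11 and 8 of 14). Summed immediate early genes, which tissue dissociation can raise, were 8511, 13239, 25644 and 18235 CPM. Their part in the member folds was not tested. The types are ranges of a marker score: with 1 marker fewer, 3 of 10, 8 of 22, 2 of 40 and 3 of 30 resident cells would have left their type.

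Resident-type cells held all 219 and all 537 phagocyte UMIs of Ccl8 in cKO_control and cHet_control, all 326 and all 27 of Ccl12, and in cHet_PD 106 of 144 of Ccl8 and 22 of 39 of Ccl12. Within that type Ccl2 was at 371 CPM (192 to 649) in the 10 cells of cKO_PD and 2175 (1879 to 2504) in the 22 of cHet_PD. It was at 2032 (1863 to 2211) in the 40 of cKO_control and 783 (669 to 910.3) in the 30 of cHet_control. In cKO_PD these 10 cells held no Ccl7 and no Ccl8 and 1 UMI of Ccl12, but 266 UMIs of Ccl4, 8232 CPM (7273 to 9283), and 77 of Ccl3, 2383 CPM (1881 to 2978). In cHet_PD, resident cells had 1814 CPM of Ccl7 (1545 to 2117), 1194 of Ccl8 (978 to 1444), 5093 of Ccl4 (4634 to 5585) and 394 of Ccl3 (275 to 548). So Ccl3 and Ccl4 were high in these few cKO_PD cells, of which 7 and 8 held them, although over the whole class Ccl4 was lower and Ccl3 about equal. Against cHet_control, resident cells of cHet_PD had Ccl2 2.78-fold higher (2.25 to 3.44), Ccl7 3.54-fold (2.76 to 4.55) and Ccr2 11.3-fold (4.59 to 33.3). Ccl4 was 5.66-fold higher there (4.78 to 6.74), and Ccl8 2.09-fold lower (1.70 to 2.60). Between the controls, resident cells had Ccl12 9.83-fold higher in cKO_control (6.63 to 15.1), Ccr1 6.35-fold (3.69 to 11.7) and Ccl7 3.34-fold (2.7 to 4.15). Ccr2 was 7.19-fold higher there (3.09 to 20.5, from 53 and 6 UMIs), and Ccl8 3.01-fold lower (2.57 to 3.54).

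In the PD libraries, monocyte-type cells had more Ccr2 than the other types. It was at 706 CPM (614 to 808) in the 80 cells of cKO_PD and 586 (474 to 716) in the 49 of cHet_PD, where 62 and 33 cells had a UMI. Ccr1 was at 783 CPM (686 to 889) in cKO_PD and 579.7 (469 to 709) in cHet_PD. No monocyte-type cell held Ccl8 or Ccl12 in any of the 4 libraries. Between the PD libraries, monocyte-type cells of cKO_PD had Ccl5 17.7-fold lower (9.96 to 34.1), Ccl4 4.98-fold lower (3.85 to 6.51) and Ccl2 2.63-fold lower (1.75 to 3.98). Inflammatory-type cells of cKO_PD had Ccl7 6.85-fold lower (2.62 to 25.5), Ccl5 6.88-fold (4.26 to 11.9), Ccr1 2.46-fold (1.75 to 3.58) and Ccl3 2.19-fold lower (1.37 to 3.71) than those of cHet_PD. Lower but short of the fold there were Ccl4 (1.84-fold, 1.44 to 2.36), Ccl2 (1.36-fold, 0.807 to 2.46) and Ccr2 (1.37-fold, 0.844 to 2.34).

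Clusters drawn without the 9 members gave a second view. Phagocytes of cKO_PD lay mostly in a cluster led by Lyz2, Il1b and Clec4e (78 of 121 cells), those of cHet_PD in one led by Ctss, Lyz2 and Cxcl2 (144 of 205). Those of the controls lay in one led by class II genes (42 of 55 in cKO_control and 32 of 46 in cHet_control). In the Clec4e cluster (91 cells of cKO_PD and 43 of cHet_PD, counted with cells outside the gate), Ccl4 was at 252 CPM (201 to 311) in cKO_PD and 1037 (875 to 1221) in cHet_PD. In the Cxcl2 cluster (22 and 159 cells) the order was the opposite, with Ccl4 at 3486 CPM (3125 to 3878) in cKO_PD and 1442 (1364 to 1523) in cHet_PD. Ccl3 there was at 967 CPM (781 to 1183) in cKO_PD and 357 (319 to 399) in cHet_PD. The shares of cells with a UMI were close, at 59.1% in cKO_PD and 57.2% in cHet_PD for Ccl4. For Ccl3 they were 45.5% in cKO_PD and 48.4% in cHet_PD. How many of these cKO_PD cells were of the resident type was not counted. Ccl7 was lower in cKO_PD in that cluster, at 61.7 CPM (22.6 to 134) against 309 (273 to 348) in cHet_PD, as was Ccl5, at 596 (453 to 771) against 954 (891 to 1021). Ccr2, highest in cKO_PD over the whole class, was lower there in this cluster, at 82.3 CPM (35.5 to 162) against 249.9 (218 to 285) in cHet_PD.

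**Figure D3:**
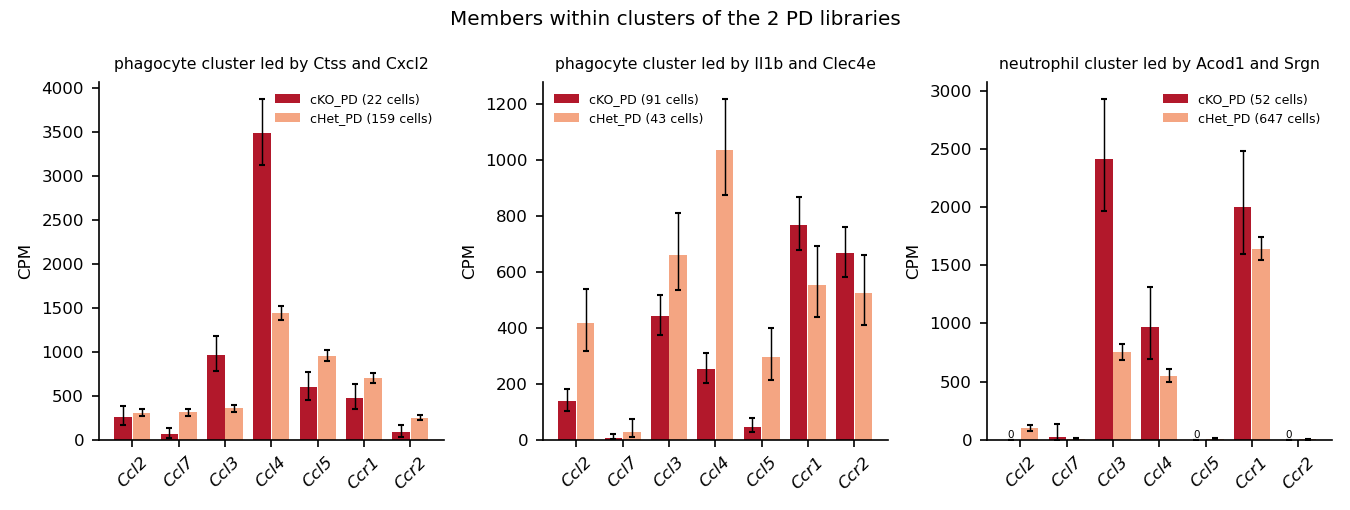
CPM of 7 members (x axis) within 2 phagocyte clusters and 1 neutrophil cluster (panels), cKO_PD bars left of cHet_PD bars, with exact Poisson 95% intervals; 0 marks no UMI. Ccl4 is higher in cKO_PD in the cluster led by Ctss and Cxcl2 (3486 CPM, against 1442 in cHet_PD) and lower in the one led by Il1b and Clec4e (252 CPM, against 1037 in cHet_PD), and Ccl3 is higher in cKO_PD in the neutrophil cluster (2413 CPM, against 753 in cHet_PD). In the Cxcl2 cluster a UMI of Ccl4 was seen in 59.1% of cKO_PD and 57.2% of cHet_PD cells.

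Fibroblasts held Ccl2 and Ccl7, and both were highest in cHet_PD. Ccl2 had 195 UMIs in cKO_PD, 339 CPM (293 to 390.2), and 3523 UMIs in cHet_PD, 3041 CPM (2942 to 3143). It had 70 UMIs in cKO_control, 110.5 CPM (86.1 to 139.6), and 282 UMIs in cHet_control, 199.5 CPM (177 to 224). The cHet_PD library stood far above the other 3, with Ccl2 in 60.1% of its fibroblasts, against 19.6% in cKO_PD, 13.8% in cKO_control and 14.8% in cHet_control, or 51.5% against 12.3%, 8.51% and 5.42% after thinning. Ccl7 was at 117 CPM (90.3 to 148) in cKO_PD and 1092 (1033 to 1154) in cHet_PD, against 14.2 (6.50 to 26.97) in cKO_control and 71.5 (58.2 to 86.8) in cHet_control. It stood in the same order as Ccl2. Of the fibroblasts with Ccl2, 11 of 32 in cKO_PD and 126 of 170 in cHet_PD also held Ccl7, against 0 of 13 in cKO_control and 11 of 30 in cHet_control. Ccl8 had 1 UMI in cKO_PD, 80 UMIs in cHet_PD (69.1 CPM, 54.8 to 86.0, in 37 of 283 cells), 5 in cKO_control and 6 in cHet_control. The other members had at most 4 UMIs in fibroblasts of a library, other than Ccl5 with 32 UMIs in 11 cells of cHet_PD, a class taken above as one that should lack it.

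In cKO_PD over cKO_control fibroblasts, both measured members were higher, against 8.41% of genes higher and 14% lower. Ccl2 was 3.07-fold higher (2.32 to 4.09) and Ccl7 8.2-fold higher (4.07 to 18.7), and each lost its call in 1 setting, Ccl2 with clusters in place of the gate (log2 0.52, against 1.53) and Ccl7 after thinning. In the cHet pair, cHet_PD over cHet_control, all 4 measured members were higher, against 7.07% higher and 10.2% lower. Ccl2 was 15.2-fold higher (13.5 to 17.3), Ccl7 15.3-fold (12.5 to 18.9), Ccl8 16.3-fold (7.15 to 45.6) and Ccl5 at least 13-fold. In cKO_PD over cHet_PD, all 4 were lower, against 6.35% lower and 5.14% higher. Ccl2 was 8.97-fold lower (7.76 to 10.4), Ccl7 9.37-fold (7.33 to 12.2), Ccl5 7.94-fold (2.03 to 68.4) and Ccl8 39.7-fold (6.93 to 1590, with 1 UMI). Ccl5 lost both of these calls after thinning. In cKO_control over cHet_control, 1 of 2 was lower, against 4.97% lower and 4.68% higher: Ccl7, 5.03-fold (2.55 to 11.3), a call lost after thinning.

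Fibroblast clusters were shared unevenly too. Of the fibroblasts of cKO_PD, 67 of 163 lay in a cluster led by Cytl1 and Mgp, which held 0 of 283 in cHet_PD, 12 of 94 in cKO_control and 92 of 203 in cHet_control. Col2a1, a collagen of cartilage, was at 4638, 0.863, 511 and 7268 CPM in the fibroblast class, and Cytl1 at 8758, 0, 3678 and 6925 CPM, so the class held cartilage-type transcripts in unequal amounts. Without that cluster, an alternative chosen after the data were seen, 11 of 11 calls in fibroblasts held, and Ccl2 also became lower in cKO_control than in cHet_control (log2 -1.43, against -0.80). In size, 8 of 12 folds moved beyond their intervals. In cKO_PD over cHet_PD, log2 was -2.16 for Ccl2 (against -3.13) and -2.19 for Ccl7 (against -3.12). For the cHet pair it was 2.99 for Ccl2 (against 3.86) and 2.93 for Ccl7 (against 3.76), and for the cKO pair 2.26 (against 1.53) and 3.16 (against 2.39). Within the cluster led by Col1a1 and Col1a2, Ccl2 was at 118 CPM in 67 cKO_PD cells and 1270 in 152 cHet_PD cells, 10.8-fold lower (7.19 to 16.9), and Ccl7 was 7.58-fold lower (4.27 to 14.8). Within the cluster led by Col3a1 and Dcn, Ccl2 was at 6330 CPM in 103 cHet_PD cells and 443 in 89 cHet_control cells, 14.3-fold higher (12.6 to 16.2), and Ccl7 was 15.7-fold higher (12.7 to 19.6). It held 2424 of the 3523 Ccl2 UMIs and 918 of the 1265 Ccl7 UMIs of cHet_PD fibroblasts. Only 7 of 163 fibroblasts of cKO_PD lay in it, too few to compare the PD libraries there. The part of this cluster in the folds of the whole class was not tested. In that cluster, Ccl2 was 3.27-fold lower (2.49 to 4.35) in the 74 cells of cKO_control than in cHet_control.

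**Figure D4:**
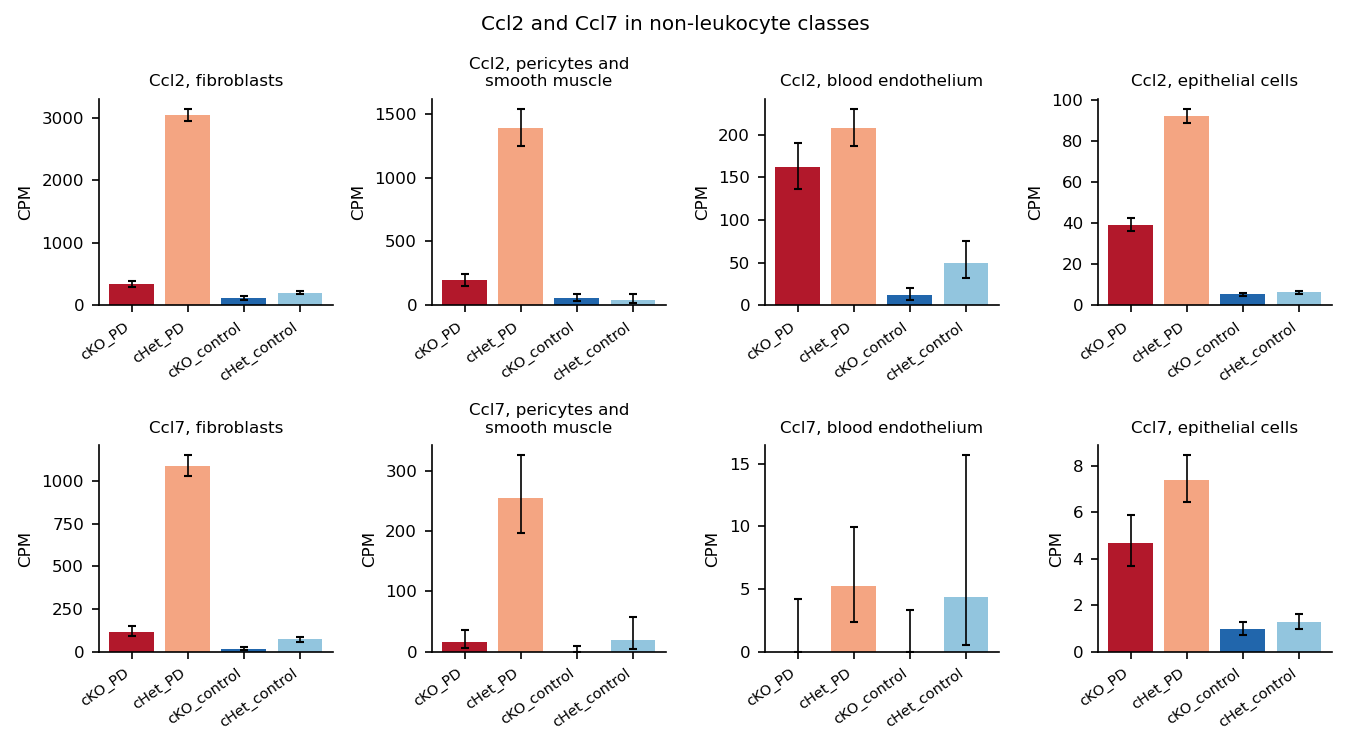
CPM of Ccl2 (top row) and Ccl7 (bottom row) in fibroblasts, pericytes and smooth muscle, blood endothelium and epithelial cells (columns, each with its own y axis from 0) of cKO_PD, cHet_PD, cKO_control and cHet_control, with exact Poisson 95% intervals. Ccl2 is highest in cHet_PD in each of the 4 classes, at 3041 CPM in fibroblasts and 92.03 in epithelial cells.

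Pericytes and smooth muscle cells gave a similar order for Ccl2, at 194.5 CPM (152 to 246) in cKO_PD and 1389 (1247 to 1542) in cHet_PD, against 54.6 (33.8 to 83.5) in cKO_control and 39.1 (14.3 to 85.0) in the 34 cells of cHet_control. In cHet_PD, 1 cell held 170 of the 352 UMIs. In cKO_PD over cKO_control, the 1 measured member, Ccl2, was 3.56-fold higher (2.16 to 6.11), against 7.76% of genes higher and 8.41% lower. In cKO_PD over cHet_PD, both measured members were lower, against 4.9% of genes lower and 4.94% higher: Ccl2 7.14-fold (5.51 to 9.37) and Ccl7 15.4-fold (6.70 to 43.5). Thinning left 1 against 5 UMIs of Ccl7, and its call was lost. Summed fibroblast markers in this class were 11978, 29743, 3344 and 2395 CPM (12, 11, 10 and 9 of 14 with a UMI), beside 36249, 29483, 33700.2 and 33634 CPM of its own markers, so cHet_PD, highest for Ccl2 and Ccl7, was also highest for fibroblast markers. Their part in these folds was not tested. In the 36 lymphatic endothelial cells of cHet_PD, 178 UMIs of Ccl2 gave 1376 CPM (1182 to 1594), and 76 of them were in 1 cell.

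Blood endothelium had Ccl2 at 162 CPM (136 to 191) in cKO_PD and 208 (187 to 231) in cHet_PD, against 11.7 (6.25 to 20.1) in cKO_control and 50.0 (31.7 to 75.0) in cHet_control. The PD libraries overlapped each other and lay above both controls. Ccl2 was in 7.80%, 14.0%, 4.19% and 5.81% of these cells, or 5.38%, 8.87%, 1.05% and 3.49% after thinning. Before thinning, the intervals of these shares overlapped between cKO_PD (5.21 to 11.2) and cKO_control (1.83 to 8.09). In cKO_PD, 10 cells held 110 of the 141 UMIs, and cKO_control had 13 UMIs in all. In cKO_PD over cKO_control, the 1 measured member was higher, against 4.58% of genes higher and 6.19% lower, 13.8-fold (7.81 to 26.5). For cHet_PD over cHet_control, 1 of 2 was higher, against 6.88% higher and 6.29% lower, with Ccl2 4.16-fold (2.73 to 6.65). Between the PD libraries, 0 of 2 were apart, against 1.69% of genes lower and 1.65% higher, and Ccl2 was 1.29-fold lower in cKO_PD (1.05 to 1.57). The libraries filled the endothelial clusters unequally: one led by Fabp4 and Cd36 held 124, 405, 32 and 27 of these cells and one led by Igfbp7 and Selp 219, 162, 159 and 59. In the Fabp4 cluster Ccl2 was at 297 CPM (238 to 367) in cKO_PD and 276 (246 to 308) in cHet_PD, and in the Selp cluster it was lower in cKO_PD, at 104 CPM (82.9 to 128) against 316 (284 to 350.5) in cHet_PD. Between the controls, the 1 measured member, Ccl2, was lower in cKO_control, against 1.15% of genes lower and 1.38% higher, 4.26-fold (2.07 to 9.15). After thinning, the last call and that of cHet_PD over cHet_control were lost, with 7 UMIs left in cHet_control. Ccl8, Ccl12 and Ccl3 had no UMI in endothelium of any library.

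Epithelial cells had little Ccl2 per cell but were the most numerous class. Ccl2 was at 39.1 CPM (36.0 to 42.3) in cKO_PD and 92.03 (88.5 to 95.6) in cHet_PD, against 5.17 (4.55 to 5.845) in cKO_control and 6.28 (5.61 to 7.01) in cHet_control. It was in 5.17%, 12.2%, 1.54% and 2.42% of epithelial cells, or 2.66%, 5.45%, 0.475% and 0.744% after thinning. Both PD libraries lay above both controls. Ccl2 was the 1 of 7 measured members that was higher in cKO_PD over cKO_control, against 1.52% of genes higher and 2.14% lower, 7.56-fold (6.52 to 8.79). It was also the 1 of 7 in cHet_PD over cHet_control, against 3.17% higher and 3.11% lower, 14.7-fold (13 to 16.5), and the 1 of 7 that was lower in cKO_PD over cHet_PD, against 0.57% lower and 1.64% higher, 2.35-fold (2.16 to 2.58). Epithelial cells of PD and control libraries lay in almost separate clusters. The largest cluster of the controls held 10 cells of cKO_PD and 16 of cHet_PD, against 1794 of cKO_control and 2278 of cHet_control, and one led by Col17a1, H19 and Krt5 held 599 and 1355 PD cells and 0 control cells. None of 6 was apart between the controls, against 0.688% of genes higher and 0.223% lower. Within an epithelial cluster led by Col17a1, H19 and Krt5, Ccl2 was at 172 CPM (154 to 191) in 600 cKO_PD cells and 229 (218 to 239) in 1357 cHet_PD cells, with a UMI in 16.5% and 29.8% of them. Ccl2 was also lower in cKO_PD than in cHet_PD in clusters led by Krt1 and Krt10 (6.31 against 15.5 CPM), Col17a1, Krt5 and Itga6 (5.59 against 28.4) and Ube2c (54.7 against 91.2). In a cluster led by Sprr1b and Sprr1a the order was the opposite. There Ccl2 was at 50.9 CPM (32.6 to 75.8) in 61 cKO_PD cells and 15.2 (11.2 to 20.1) in 287 cHet_PD cells. The cKO_PD value came from 24 UMIs in 6.56% of its cells. Intervals overlapped in a cluster led by BC037156 and Odam, at 38.7 CPM (30.4 to 48.5) in cKO_PD and 29.2 (21.9 to 38.2) in cHet_PD. So did those of one led by Ccer2, at 49.3 (23.6 to 90.7) in cKO_PD and 84.6 (67.4 to 104.9) in cHet_PD. The largest cluster of the controls, led by Krt5 and Krt15, had 7.26 CPM (5.68 to 9.14) in cKO_control and 9.18 (7.60 to 11) in cHet_control. The other members were at or below 7.38 CPM in epithelial cells of any library.

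Ccl7 made up a different share of the summed Ccl2 and Ccl7 UMIs in different classes. In fibroblasts it was 25.6% (20.4 to 31.3) in cKO_PD and 26.4% (25.2 to 27.7) in cHet_PD, against 11.4% (5.34 to 20.5) in cKO_control and 26.4% (22.0 to 31.1) in cHet_control. In phagocytes it was 7.79% (2.91 to 16.2) in cKO_PD and 46.8% (43.1 to 50.5) in cHet_PD, against 45.1% (42.0 to 48.3) in cKO_control and 36.3% (30.9 to 42.0) in cHet_control. In epithelial cells it was 10.7% (8.48 to 13.3) and 7.42% (6.48 to 8.45) in the PD libraries. In endothelium it was 0% of 141 UMIs (0 to 2.58) in cKO_PD and 2.45% (1.13 to 4.60) in cHet_PD. In cHet_PD the intervals of fibroblasts, phagocytes and epithelial cells did not overlap.

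Neutrophils were compared between the PD libraries only, as the controls had 23 and 37. They held Ccl3, Ccl4 and Ccr1 and almost no Ccl2-cluster ligand: Ccl8 and Ccl12 had no UMI in any library, and Ccl2 had 10 UMIs in cKO_PD and 32 in cHet_PD. Ccr1 was at 671 CPM (629 to 716) in cKO_PD and 1600 (1516 to 1687) in cHet_PD, in 60.0% and 76.5% of cells. Ccl3 was at 261 CPM (235 to 289) in cKO_PD and 710.3 (655 to 769.6) in cHet_PD, and Ccl4 at 80.5 (66.3 to 96.7) in cKO_PD and 768.5 (710.4 to 830) in cHet_PD. All 4 measured members were lower in cKO_PD, against 10% of genes lower and 11.7% higher. Ccl4 was 9.55-fold lower (7.81 to 11.8), Ccl2 5.33-fold (2.56 to 12.2), Ccl3 2.73-fold (2.39 to 3.11) and Ccr1 2.38-fold lower (2.19 to 2.59). With the control libraries' UMI floor set for all libraries, Ccl2 (10 against 7 UMIs) and Ccr1 (log2 -0.63, against -1.24) lost their call, and Ccl2 also after thinning.

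The neutrophils of the 2 PD libraries lay mostly in different clusters. A cluster led by Acod1 and Srgn held 50 of 785 neutrophils of cKO_PD and 591 of 765 of cHet_PD. A pair of clusters led by the granule gene Ngp held 329 and 144 in cKO_PD, against 14 and 7 in cHet_PD. In the Acod1 cluster (52 and 647 cells), Ccl3 was at 2413 CPM (1964 to 2935) in cKO_PD and 753 (688 to 823) in cHet_PD. Ccl4 there was at 965 (689.7 to 1315) in cKO_PD and 549 (494 to 609.5) in cHet_PD, and Ccr1 at 2003 (1595 to 2483) and 1642 (1545 to 1744). So Ccl3 and Ccl4, lower over all cKO_PD neutrophils, were at higher CPM in cKO_PD within this cluster. A UMI of Ccl3 was seen in 38.5% of its cKO_PD cells and 23.6% of its cHet_PD cells. For Ccl4 the shares were close, at 17.3% in cKO_PD, from 40 UMIs, and 17.9% in cHet_PD. A cluster led by Retnlg held 201 neutrophils of cKO_PD and 34 of cHet_PD. There Ccl3 was higher in cKO_PD as well, at 426 CPM (341 to 526) against 126 (41.1 to 295) in cHet_PD, while the intervals overlapped for Ccl4, at 228 CPM (167 to 304) in cKO_PD and 278 (139 to 498) in cHet_PD, and for Ccr1, at 1293 (1141 to 1460.3) in cKO_PD and 1239 (917 to 1639) in cHet_PD. The larger of the Ngp clusters had 214 CPM of Ccl3 (177 to 258) and 741 of Ccr1 (669.7 to 819) in 330 cKO_PD cells. A cluster led by Slfn4 and Rsad2, seen in cHet_PD alone (116 cells), had Ccl4 at 3025 CPM (2728 to 3346).

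T and NK cells held Ccr2 and Ccl5. Ccr2 was at 753 CPM (593 to 942) in cKO_PD and 540.4 (464.5 to 625) in cHet_PD, against 364 (281 to 464) in cKO_control and 824 (664 to 1011) in the 39 cells of cHet_control. It was in 43.8%, 51.2%, 39.6% and 61.5% of these cells. Ccl5 was at 198 CPM (121 to 306) in cKO_PD and 791 (699 to 892) in cHet_PD, against 615 (506 to 742) in cKO_control and 636 (497 to 802) in cHet_control. The cKO_PD library was the lowest for Ccl5. In cKO_PD over cKO_control, 1 of 2 was higher and 1 lower, against 9.36% and 7.08% of genes: Ccr2 was 2.07-fold higher (1.47 to 2.93), a call lost in 4 of the settings tried, and Ccl5 3.11-fold lower (1.92 to 5.28). In cKO_PD over cHet_PD, 1 of 3 was lower, against 3.84% of genes lower and 2.98% higher, Ccl5 at 3.99-fold (2.53 to 6.64). Of the T and NK cells with Ccl5, 1 of 6 in cKO_PD and 8 of 23 in cHet_PD also held Ccr2, against 2 of 10 in cKO_control and 0 of 4 in cHet_control. By marker scores, Ccl5 was at 998 CPM (609.4 to 1541) in 14 cytotoxic cells of cKO_PD and 3152 (2781 to 3559) in 34 of cHet_PD, but 10 of those 14 and 4 of those 34 cells would have left the type with 1 marker fewer. Cytotoxic cells held Ccr2 too, at 99.8 CPM (12.1 to 360.4) in cKO_PD and 314 (205 to 460.1) in cHet_PD. It was at 952 CPM (736 to 1211) in 56 gamma-delta or innate cells of cKO_PD and 569.6 (471.5 to 682) in 109 of cHet_PD.

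The log2 fold of PD over control in cKO less that in cHet sets all 4 libraries side by side. In phagocytes it was -5.94 for Ccl7, -5.40 for Ccl12 and -2.61 for Ccl8, all with few or no UMIs in cKO_PD. Among the others it was -2.81 for Ccl2, -2.68 for Ccl4, -1.97 for Ccl3, -1.64 for Ccr1, 0.84 for Ccr2 and 0.14 for Ccl5. In fibroblasts it was -2.33 for Ccl2 and -1.37 for Ccl7, although both genes were higher in PD in each genotype. Endothelial Ccl2 stood the other way, at 1.12, and epithelial Ccl2 was at -0.95. These differences have no replicate check.

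Summed over the cells kept, the source of each member shifted between libraries. Of the Ccl2 UMIs, epithelial cells held 51.0%, 32.1%, 22.7% and 34.8%, fibroblasts 16.3%, 43.2%, 6.27% and 31.1%, and phagocytes 5.95%, 4.75%, 49.4% and 21.3%. Of the Ccl3 UMIs, neutrophils held 45.9%, 45.9%, 5.28% and 9.14% and phagocytes 29.2%, 31.6%, 81.5% and 49.2%. Ccr1 UMIs lay mostly in neutrophils of the PD libraries, 65.1% in cKO_PD and 55.2% in cHet_PD. Ccl8 lay in phagocytes by 62.3% in cHet_PD, 93.2% in cKO_control and 95.9% in cHet_control, and had 6 UMIs in all in cKO_PD, none in phagocytes. These shares depend on how many cells of each class were captured.

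**Figure D5:**
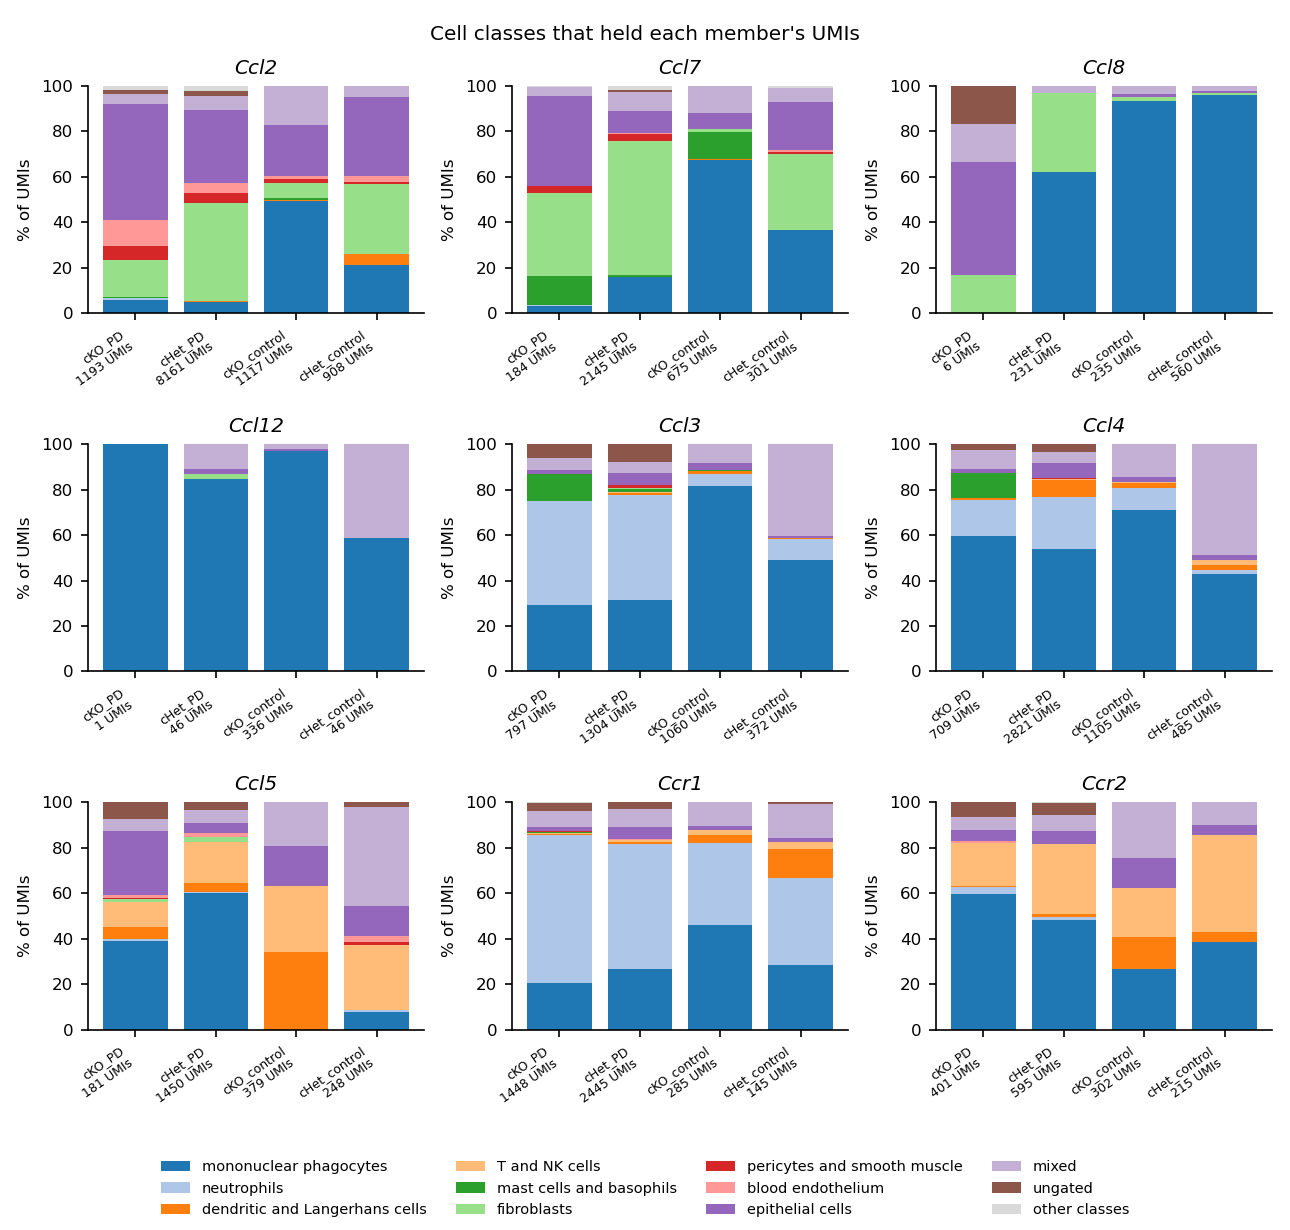
Share of each member's UMIs (y axis, % of UMIs in kept cells) by cell class (colours) in cKO_PD, cHet_PD, cKO_control and cHet_control (bars, with the UMIs behind each below it). Epithelial cells hold 51.0% of Ccl2 in cKO_PD and fibroblasts 43.2% in cHet_PD, and phagocytes hold 93.2% and 95.9% of Ccl8 in the controls; cKO_PD has 6 UMIs of Ccl8 and 1 of Ccl12.

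Over 26 points, each a cell class of 1 library with at least 40 cells, the members fell into sets with like patterns. Pearson's r of log2(CPM + 10) was 0.93 between Ccl3 and Ccl4, 0.89 between Ccl4 and Ccr1, 0.87 between Ccl2 and Ccl7 and 0.86 between Ccl8 and Ccl12. It was -0.15 between Ccl2 and Ccl5. Among 12403 genes, the most alike were Ccl7, Cmtm3 and Hmox1 for Ccl2 (0.87, 0.83 and 0.81), and Ccl2, Slc36a1 and Hgf for Ccl7 (0.87, 0.82 and 0.79). Ccl8 was most like Cd163, C1qa and Folr2 (0.93, 0.91 and 0.91), and Ccl12 most like C1qa, Fhad1 and Clec4a3 (0.92, 0.89 and 0.89). Ccl3 was most like Il1a, Spi1 and Fcgr3 (0.96, 0.95 and 0.95), and Ccl4 most like Nlrp3, Mpeg1 and Csf1r (0.96, 0.96 and 0.95). For Ccl5 they were Il7r, Itgb7 and Il21r (0.92, 0.91 and 0.84), for Ccr1 Plek, Osm and AB124611 (0.98, 0.98 and 0.97), and for Ccr2 Lpxn, AI504432 and Gpr65 (0.99, 0.97 and 0.96). Points share libraries and depth, and C1qa, Clec4a3, Mpeg1, Csf1r and Il7r were themselves gate markers.

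Other genes of the pathway were counted from lists chosen with earlier results in view. Of 27 other chemokine ligands, 9 were measured in phagocytes. In cKO_PD over cHet_PD 0 were higher and 7 lower, against 6.35% and 5.38% of all genes. Their median log2 fold was -1.46, beside 0.14 over all genes. Cxcl1, a neutrophil attractant, was at 349 CPM in cKO_PD and 2251 in cHet_PD (log2 -2.65), and Cxcl2 at 4399 in cKO_PD and 14906 in cHet_PD (-1.76). Cxcl9, an interferon-induced ligand, was at 2.03 CPM in cKO_PD and 120 in cHet_PD (-3.44), and Pf4 at 56.8 in cKO_PD and 314 in cHet_PD (-2.28). Of 9 measured in cHet_PD over cHet_control, 6 were higher and 1 lower, against 9.9% and 14.6% of all genes (median 2.71, beside -0.12). There Cxcl1 was at 2251 CPM in cHet_PD and 26.7 in cHet_control (log2 5.94). Cxcl3 was at 2033 in cHet_PD and 44.5 in cHet_control (5.23). In cKO_PD over cKO_control, 1 of 9 was higher and 2 lower, against 13.4% and 12.4% of all genes. Cxcl3 was at 735 CPM in cKO_PD and 5.42 in cKO_control (log2 5.59), and Pf4 at 56.8 in cKO_PD and 514 in cKO_control (-2.97). Between the controls, 3 of 9 were higher and 0 lower in cKO_control, against 3.17% and 5.07% of all genes. In fibroblasts, 10 of 13 were higher and 1 lower in cHet_PD over cHet_control, against 7.07% and 10.2% of all genes. In cKO_PD over cHet_PD, 0 of 12 were higher and 7 lower, against 5.14% and 6.35%. Cxcl5 in fibroblasts was at 186 CPM in cKO_PD and 1254 in cHet_PD (log2 -2.69).

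Of 21 other chemokine receptors, 5 were measured in phagocytes of the PD libraries, 0 higher and 3 lower in cKO_PD (median -1.32), where 6.35% of all genes were higher and 5.38% lower. They included Ccrl2, at 276 CPM in cKO_PD and 915 in cHet_PD (log2 -1.69). Of 23 inducers of chemokine transcription, 21 were measured there, 1 higher and 3 lower (median -0.13), beside the same shares of all genes. Il6 was at 134 CPM in cKO_PD and 46.5 in cHet_PD (log2 1.35), and Tnf at 292 in cKO_PD and 1092 in cHet_PD (-1.87). For cHet_PD over cHet_control, 10 of 21 were higher and 2 lower, against 9.9% and 14.6% of all genes. In cKO_PD over cKO_control 5 of 21 were higher and 6 lower, against 13.4% and 12.4%. Tnf was at 292 CPM in cKO_PD and 1457 in cKO_control (log2 -2.28), and Irf1 at 32.5 in cKO_PD and 230 in cKO_control (-2.50). In neutrophils, 0 of 21 were higher and 12 lower in cKO_PD over cHet_PD, beside 11.7% and 10% of all genes, with Nfkbia at 902 CPM in cKO_PD and 3708 in cHet_PD (log2 -2.03) and Il1a at 174 in cKO_PD and 717 in cHet_PD (-1.98). Of 22 genes of receptor signalling, 19 were measured in phagocytes of the PD libraries, 2 higher and 0 lower in cKO_PD (median 0.25), beside the same shares of all genes. Of 17 immediate early genes, 0 were higher and 13 lower in cKO_PD over cKO_control phagocytes, against 13.4% and 12.4% of all genes. In cHet_PD over cHet_control 2 were higher and 7 lower, against 9.9% and 14.6%. Between the PD libraries 0 were higher and 3 lower, against 6.35% and 5.38%. In neutrophils, 0 of the 17 were higher and 10 lower in cKO_PD over cHet_PD, against 11.7% and 10% of all genes. Their summed levels were 4951 CPM in cKO_PD and 11294 in cHet_PD, and their part in the neutrophil folds was not tested.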

How the data were processed

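Gingiva was digested with enzymes and sequenced as single cells. Per the labels' protocols the libraries were made with the BD Rhapsody whole-transcriptome kit, while a label names 10x Genomics. The authors deposited raw UMI counts per gene and barcode, 1 matrix a library; fastp, STARsolo 2.7.10a and mm10 are named in the submitters' processing notes. The 33854 barcodes were cut to 31150 with at least 200 genes and at most 20% mitochondrial UMIs, and 0 columns of per-sample values were left unused.

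A cell took the type with the largest share of its marker list detected, with at least 4 markers (3 for short lists, 5 for neutrophils and for keratinocytes alone, 9 for keratinocytes beside another lineage). A cell was mixed where another type, other than the related lineages named above, reached 0.6 of that share. A dendritic cell needed 2 markers and 0.5 of its phagocyte share. These thresholds were set after the data were seen. A state took the highest share of its own list. Counts were summed per type and library (at least 40 cells, or 20 for states and clusters compared by fold). CPM has exact Poisson, shares exact Clopper-Pearson and ratios exact conditional binomial 95% intervals, computed with Python 3.11.15, numpy 2.4.6 and scipy 1.17.1. A floor of 3 counts per library stands for 0, and every fold given as at least a value rests on it. The exact intervals of those ratios reach lower than that value. Clusters (igraph 0.11.9, leidenalg 0.10.2; 2000 variable genes, 30 components, 15 neighbours, resolution 1, seed 1) were drawn without the 9 members, giving 44, with a second round for clusters above 100 CPM of Ptprc. TMM factors came from edgeR 4.0.16 in R 4.3.3, and no count model was fitted. The fold step was tested on simulated data.

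Named were all members, the 3 genes most alike to each (at least 200 UMIs, without mitochondrial, ribosomal, hemoglobin, immunoglobulin, T cell receptor, predicted and sex-linked genes) and, of each pathway list, up to 4 genes with the largest fold per pair. The members, lists and markers were chosen with earlier results of these data known. Shares of all genes apart are over genes with at least 20 UMIs, as for the members; those over 50 UMIs were computed too. Alternatives were 1 more marker per gate, clusters as types, a common UMI floor, thinning to 1000 UMIs, no mitochondrial cap, TMM, a pseudocount of 1 CPM, equal weight per cell and, added after the data were seen, fibroblasts without the Cytl1 and Mgp cluster.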

Additional observations from a re-analysis of the deposited data

Results flagged for a closer look

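Ccl4 summed over all mononuclear phagocytes went opposite ways with PD in the 2 genotypes, but not within resident-type cells. Its log2 fold was -1.30 in cKO_PD over cKO_control and 1.37 in cHet_PD over cHet_control, a difference of -2.68. The difference was not tested, since each group was 1 library. After thinning, the cKO fold was -0.45, and with clusters in place of the gate the cHet fold was 0.19. In cKO_PD the 10 highest of 121 cells held 79.6% of the Ccl4 UMIs, and in cHet_control the 10 highest of 46 cells held 93.2%. Within resident-type cells Ccl4 was higher in PD in both genotypes. It was at 8232 CPM in 10 cells of cKO_PD and 2665 in 40 of cKO_control. In cHet_PD it was at 5093 CPM in 22 cells, against 899 in 30 of cHet_control. Monocyte-type cells had 270 CPM in cKO_PD and 409 in the 8 cells of cKO_control, with overlapping intervals. They had 1344 CPM in cHet_PD and 25.0, from 2 UMIs, in cHet_control.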

How the results depend on the processing

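No paired analysis was possible because the design has 1 library in every group. Of the 92 member folds, 51 were 2-fold or more apart, and all 51 kept their direction under each alternative (11 of 11 without the Cytl1 and Mgp cluster, which touches fibroblasts alone). They stayed past the fold in 50 with 1 more marker, 47 with clusters as types, 49 with a common UMI floor, 39 after thinning to 1000 UMIs, 51 without a mitochondrial cap, 50 under TMM and 51 with a pseudocount of 1 CPM; equal weight per cell has no interval and so no call. Sizes moved beyond their interval more often, in 38 of the 92 folds after thinning, 37 with a pseudocount of 1 CPM, 29 with equal weight per cell, 28 with clusters as types, 10 under TMM, 7 with a common floor, 4 with 1 more marker and 8 of 12 without the Cytl1 and Mgp cluster. The number of members apart moved by more than 1.5 times in 12 of 116 cases. With clusters as types it was 2 in endothelium in cHet_PD over cHet_control (against 1), 1 in endothelium in cKO_PD over cHet_PD (against 0) and 1 in fibroblasts in cKO_PD over cKO_control (against 2). After thinning it was 0 in endothelium in cHet_PD over cHet_control and in cKO_control over cHet_control (against 1 each), 1 in fibroblasts in cKO_PD over cKO_control (against 2) and 0 in fibroblasts in cKO_control over cHet_control (against 1). With a pseudocount of 1 CPM it was 1 in endothelium in cKO_PD over cHet_PD (against 0), and in epithelium 3, 5 and 2 in cKO_PD over cKO_control, cHet_PD over cHet_control and cKO_PD over cHet_PD (against 1 each). Without the Cytl1 and Mgp cluster, chosen after the data were seen, it was 2 in fibroblasts in cKO_control over cHet_control (against 1). Thinning leaves fewer UMIs, and a smaller pseudocount by its construction enlarges folds of low genes; the cause of the other moves was not tested.

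TMM moved log2 folds in phagocytes by 0.36 in cHet_PD over cHet_control, -0.27 in cKO_PD over cHet_PD and 0.12 in cKO_control over cHet_control, and in fibroblasts by 0.22 in cKO_PD over cKO_control and -0.15 in cKO_control over cHet_control. It moved endothelium by 0.11 and 0.17 in cKO_PD over cKO_control and cHet_PD over cHet_control, and T and NK cells by -0.12 and neutrophils by -0.10 in cKO_PD over cHet_PD. Thinning moved the phagocyte folds of cKO_PD over cKO_control to -2.38 for Ccl2, -4.85 for Ccl7 and -1.67 for Ccl3.

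The control libraries hold 55 and 46 phagocytes, so a few cells set their levels, and no interval covers the spread between animals. Depth, dissociation response and the mix of cell states differed between libraries and cannot be told apart from the groups.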

Other observations

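Mast cells and basophils, too few for a comparison, held MIP-type ligands: in the 19 of cKO_PD, 92 UMIs of Ccl3 (52 in 1 cell) gave 1339 CPM and 79 UMIs of Ccl4 gave 1150 CPM. Dendritic and Langerhans cells of cKO_control (18 cells) held 129 UMIs of Ccl5, 974 CPM, while the 23 of cHet_control held none. In dendritic cells of cHet_PD, Ccl4 had 208 UMIs, 1033 CPM.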
